A study of Mus musculus with 6 samples.

Results

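Abca3 and Abca6 are ATP-binding cassette (ABC) lipid transporters of the A subfamily. They were followed here in liver mRNA of Mul1(+/+) and Mul1(−/−) mice on a high-fat diet (HFD). Both rows were taken by gene symbol from the deposited table, so the members are 2 of its 3542 genes. Messenger RNA of 6 livers was sequenced, 3 from Mul1(+/+) and 3 from Mul1(−/−) mice, and all 6 animals had been fed the HFD for 16 weeks. Mul1 encodes an E3 ubiquitin ligase of the mitochondrial outer membrane, and the comparison asks how its loss alters hepatic expression under the diet. The Mul1(−/−) animals carry the deletion in the whole body, so it was not limited to the liver, and no group on normal chow was sequenced. The labels name hepatocytes as the cell type, but the material was pieces of liver, and neither the age nor the sex of the sequenced animals is given in them.

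The table holds only genes that the authors' own test had called different in the same 6 libraries, at no less than 1 log2 unit in either direction. Abca3 and Abca6 are therefore in it because they differed between these groups, and the tests given here are not independent evidence of that difference. Reads on the table's genes numbered from 11932163 to 15385822 per library. The 27 mitochondrial genome transcripts took 13.4%, 10.7% and 12.5% of the normalized total in the Mul1(+/+) libraries and 49.4%, 22.8% and 15.4% in the Mul1(−/−) libraries. Mul1 itself had normalized read counts of 3172, 3232 and 3423 in Mul1(+/+) and of 1037, 965 and 1753 in Mul1(−/−) HFD-liver. The Mul1(−/−) mean was 38.2% of the Mul1(+/+) mean, with no overlap of the groups (log2 fold change −1.44 ± 0.40, limma, adjusted p = 0.0126, not past the threshold used here). Reads assigned to Mul1 thus remained in the Mul1(−/−) libraries, and the counts are per gene, so they do not say which exons were covered.

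ABC transporters use the energy of ATP hydrolysis to move substrates across or within membranes, and members of the A subfamily move mainly lipids. ABCA3 is best known from alveolar type II cells of the lung, where it loads phospholipids, above all phosphatidylcholine, into the lamellar bodies that store surfactant. ABCA6 belongs to a cluster of closely related A-subfamily genes, together with ABCA5, ABCA8, ABCA9 and ABCA10 in humans. It is found in liver among other tissues, is known to respond to cholesterol, and has a poorly defined substrate.

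Abca3 (ENSMUSG00000024130) lies on the plus strand of mouse chromosome 17, at chr17:24351950-24410201 of GRCm38. The annotation gives it 9 transcripts, of which 3 are protein-coding and 5 are retained-intron forms. The longest coding transcript has 33 exons and 6476 nucleotides. Abca6 (ENSMUSG00000044749) lies on the minus strand of chromosome 11, at chr11:110176820-110251776, with 2 transcripts, of which 1 is protein-coding with 39 exons and 5240 nucleotides. The counts are per gene, so the values do not say which transcript was measured.

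Both genes have close relatives, and stretches of coding sequence in which they match a relative are shown. A read lying wholly within such a stretch cannot be assigned by sequence alone, while a longer read can reach bases that differ. The coding sequence of Abca3 was identical at 67.9% of aligned bases to that of Abca17, which lies 882 bases away on the minus strand. That of Abca6 was identical at 67.0% to Abca9, 66.4% to Abca8b, 65.9% to Abca8a and 60.9% to Abca5, and Abca3 and Abca6 were identical to each other at 59.4%. The longest identical run of each gene and its relative, read from the GENCODE M21 transcripts, is printed from 5′ to 3′ on the coding strand.
Abca3 and Abca17, from base 4702 of the Abca3 coding sequence: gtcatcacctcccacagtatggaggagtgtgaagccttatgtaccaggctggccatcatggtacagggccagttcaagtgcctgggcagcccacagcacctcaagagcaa
Abca6 and Abca9, from base 4113 of the Abca6 coding sequence: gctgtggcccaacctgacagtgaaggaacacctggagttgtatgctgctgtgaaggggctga
Abca6 and Abca8a, from base 4276 of the Abca6 coding sequence: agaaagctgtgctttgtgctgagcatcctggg
The runs are 110, 62 and 32 bases long, while the longest run that Abca3 and Abca6 share is 13 bases. Of the 6427 stretches of 50 bases in the Abca3 transcript, 145 also occurred in Abca17, and of the 5191 stretches in the Abca6 transcript, 13 (0.25%) also occurred in Abca9. A further 776 stretches of Abca3 occurred in D330041H03Rik, a non-coding transcript on the opposite strand that shares 914 exonic bases with the Abca3 transcript, or 14.1% of its length. Whether the authors counted by strand is not given in the sources used here, so within those bases reads of the sense and antisense transcripts cannot be told apart. Neither Abca17, Abca9 nor D330041H03Rik is in the table, and they were not analysed here.

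Abca3 mRNA fell in Mul1(−/−) HFD-liver. Its normalized read counts were 4823, 2161 and 9896 in Mul1(+/+) replicates 1, 2 and 3, and 560, 199.6 and 734 in Mul1(−/−) replicates 1, 2 and 3. The highest Mul1(−/−) liver was below the lowest Mul1(+/+) liver, although the Mul1(+/+) values themselves were widely spread. The means were 5627 ± 3930 and 498 ± 273 (SD, n = 3 each), so the Mul1(−/−) mean was 8.85% of the Mul1(+/+) mean, 11.3-fold lower. These values rest on 2440 to 12118 reads per Mul1(+/+) library and 163 to 836 reads per Mul1(−/−) library, all far above the floor of 3 reads. On the log2(value + 1) scale the fold change was −3.43 ± 0.65 (SE; 95% interval −4.86 to −1.995, limma, adjusted p = 0.00692). Among the 1530 genes with a lower mean log2 value in Mul1(−/−), it had the 24th largest fall.

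Abca6 mRNA fell less and from a higher level. The normalized read counts were 11884, 5778 and 9557 in Mul1(+/+) replicates 1, 2 and 3, and 1815, 1662 and 3717 in Mul1(−/−) replicates 1, 2 and 3. Again no Mul1(−/−) liver reached the lowest Mul1(+/+) liver, with replicate 2 the lowest in each group for both genes. The means were 9073 ± 3082 and 2398 ± 1145 (SD, n = 3 each), which leaves 26.4% of the Mul1(+/+) mean, 3.78-fold lower. Reads numbered 6524 to 14100 in Mul1(+/+) and 1242 to 4232 in Mul1(−/−) libraries. The log2 fold change was −1.96 ± 0.47 (SE; 95% interval −3.002 to −0.91, limma, adjusted p = 0.00921), the 247th largest fall. In liver tissue, fewer cells of a type that expresses these genes and less of their RNA per cell cannot be told apart.

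**Figure D1:**
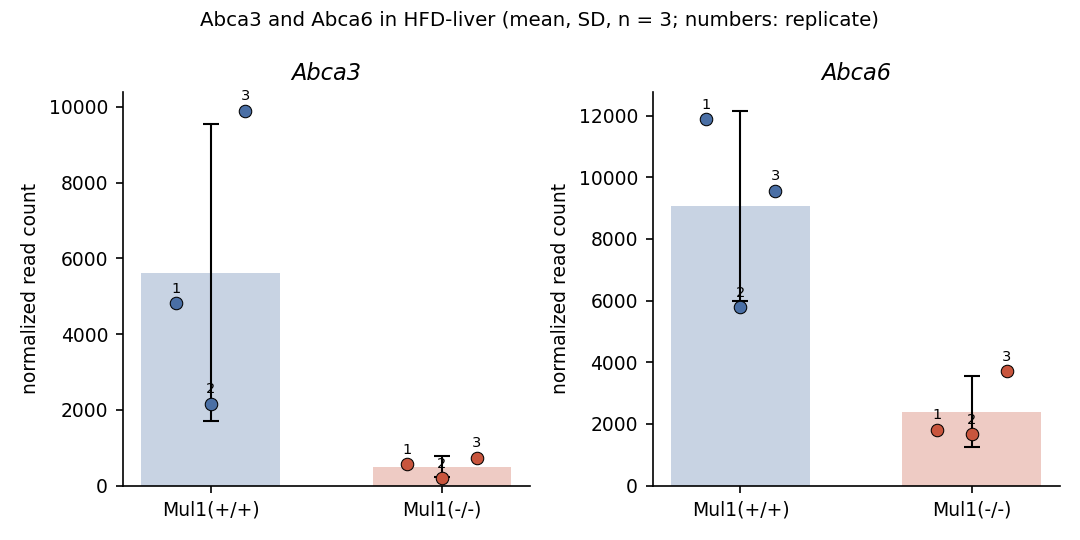
Normalized read counts of Abca3 and Abca6 in each liver library on a linear axis. Mul1(+/+) and Mul1(−/−) replicates are numbered points, and bars give the mean and SD of each group (n = 3). For both genes the 3 Mul1(−/−) points lie below the 3 Mul1(+/+) points, and replicate 2 is the lowest of its group.

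Calls of this kind were common in the table. The threshold was an adjusted p under 0.01 with a log2 fold change beyond 1 in either direction, past which limma placed 24.1% of all genes, and 7.43% of all genes were past it and lower. A complete separation of the groups with Mul1(−/−) lower was found for 41.0% of the genes. An exact permutation test of 3 against 3 libraries cannot go below p = 0.1 (two-sided), the value obtained for each of both genes. Both calls were lost without certain single livers, as were most calls of the table. Genes past the threshold numbered 854 with all 6 libraries and 25, 13 and 46 without Mul1(+/+) replicates 1, 2 and 3. Without Mul1(−/−) replicates 1, 2 and 3 they numbered 631, 10 and 2673. Abca3 had adjusted p = 0.0203, 0.0240 and 0.0217 without Mul1(+/+) replicate 1, 2 or 3 and 0.0301 without Mul1(−/−) replicate 2, and stayed past the threshold without Mul1(−/−) replicate 1 (0.00242) or 3 (0.00103). Abca6 had adjusted p = 0.0396, 0.0241 and 0.0341 without Mul1(+/+) replicate 1, 2 or 3 and 0.0156 and 0.0352 without Mul1(−/−) replicate 1 or 2, and stayed past it without Mul1(−/−) replicate 3 (0.00117). The log2 fold changes ran from −3.99 to −2.87 for Abca3 and from −2.32 to −1.73 for Abca6. As the groups did not overlap, leaving out 1 library could not reverse the direction of either gene.

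**Figure D2:**
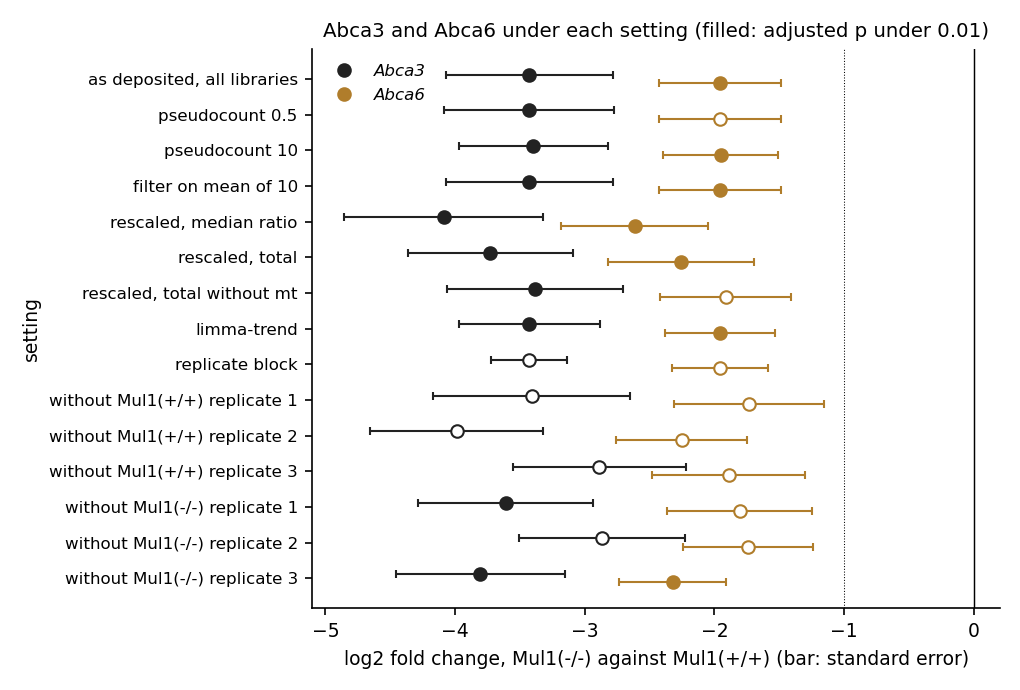
Log2 fold changes of Abca3 and Abca6, Mul1(−/−) against Mul1(+/+), with their standard errors under each setting tried, filled where the adjusted p was under 0.01. All values are below 0, from −4.09 to −2.87 for Abca3 and from −2.62 to −1.73 for Abca6, and open symbols mark the settings in which the call was lost.

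Deposited values were compared with rescaled ones because the mitochondrial transcripts took unlike shares of the normalized total of the table's genes. On the log2 scale, a median-ratio rescaling over the table's genes moved the fold changes of both genes by −0.66, rescaling by the table total moved them by −0.30, and leaving the mitochondrial genome out of that total moved them by 0.04. Abca3 stayed past the threshold on each of these 3 scales. Abca6 stayed past it on the first and second, and had a log2 fold change of −1.91 with adjusted p = 0.0107 on the third. The falls of both genes were larger than these shifts, but all genes of the table had been selected at no less than 1 log2 unit. The scalings were computed from these selected genes alone, so a scaling difference over whole libraries was not tested.

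The levels of the pair were compared per kilobase of transcript, since Abca3 has the longer transcript. Abca3 stood at 745, 334 and 1528 normalized counts per kilobase in the Mul1(+/+) livers and at 86.4, 30.8 and 113 in the Mul1(−/−) livers. Abca6 stood at 2268, 1103 and 1824 per kilobase in Mul1(+/+) and at 346, 317 and 709 in Mul1(−/−) livers. Within each liver, Abca3 was thus below Abca6 per kilobase, at 32.8%, 30.3% and 83.8% of it in Mul1(+/+) replicates 1 to 3 and at 24.95%, 9.72% and 16.0% in Mul1(−/−) replicates 1 to 3. This share does not change with the scaling of a library. The 3 Mul1(−/−) shares were below the 3 Mul1(+/+) shares, though Mul1(+/+) replicates 1 and 2 were closer to Mul1(−/−) replicate 1 than to Mul1(+/+) replicate 3. As a log2 difference of counts, Abca3 minus Abca6 was −0.89 ± 0.82 in Mul1(+/+) and −2.36 ± 0.68 in Mul1(−/−) (SD, n = 3 each). The groups differed by −1.47 on this scale, with an exact permutation p of 0.1 (two-sided), the smallest this design allows.

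Of 51 genes listed from the mouse ABC transporter family, including its ABCE and ABCF subfamilies, 12 were in the table, and the other 39 were not analysed here. Of the 12, 9 were lower and 3 higher in Mul1(−/−) HFD-liver, against 43.2% lower over the whole table. The A subfamily had 5 of its 16 listed genes in the table, and all 5 were lower. Of the 12, Abca3 and Abca6 passed the threshold, against 24.1% of all genes of the table. None of the 12 changed direction under the 15 alternatives run, some of which leave the fold change itself unaltered. With Abca3 and Abca6 left aside, 7 of the remaining 10 genes were lower and 3 higher. Of the 10, 0 were past limma's threshold, against the same 24.1%. All 10 had an unadjusted p under 0.05, as did 96.4% of all genes of the table. Their median log2 fold change was −1.04, against 1.12 over all genes of the table. These shares take no account of transcript length. Protein-coding genes were put in 10 equal groups by length, from shortest to longest. Group 9 holds Abca3, Abca6, Abca8a, Abcc5 and Abcc10, and group 10 Abca1 and Abca2. In these groups 76.4% and 78.5% of genes were lower, with medians of −1.27 and −1.29. Abcc3 and Abcc12 lie in group 8 (76.1% lower), Abcg8 and Abcb9 in group 6 (70.4%) and Abcf2 in group 4 (46.1%). The part of length was not tested.

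In the A subfamily, Abca2, known from lysosomes and myelinating cells, was at 2345 ± 968 and 797 ± 473 (log2 fold change −1.62, adjusted p = 0.0202), and its groups overlapped. Abca8a, a neighbour of Abca6 in the cluster, was at 5781 ± 1786 and 2491 ± 1215 (−1.28, adjusted p = 0.0282), with 1 Mul1(−/−) liver above the lowest Mul1(+/+) liver. Abca1, which exports cholesterol and phospholipid to apolipoprotein A-I, was at 6628 ± 2021 and 3075 ± 311 (−1.06, adjusted p = 0.0296). None of these 3 values passed the threshold.

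The other subfamilies held both directions. Abcg8, a subunit of the transporter that secretes sterols into bile, had a log2 fold change of −1.16 (adjusted p = 0.0210). Abcc3, an exporter of conjugated bile acids and bilirubin, had −1.01 (adjusted p = 0.0372), Abcb9 −1.02 (adjusted p = 0.0271) and Abcf2, which is not a transporter, −1.49 (adjusted p = 0.0178). On the other side, Abcc5, an exporter of cyclic nucleotides, had 1.26 (adjusted p = 0.0153), Abcc10 1.62 (adjusted p = 0.0236) and Abcc12 2.16 (adjusted p = 0.0107). None of these 7 passed the threshold, and the 3 higher genes belonged to the C subfamily, which had 4 of 11 listed genes in the table.

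**Figure D3:**
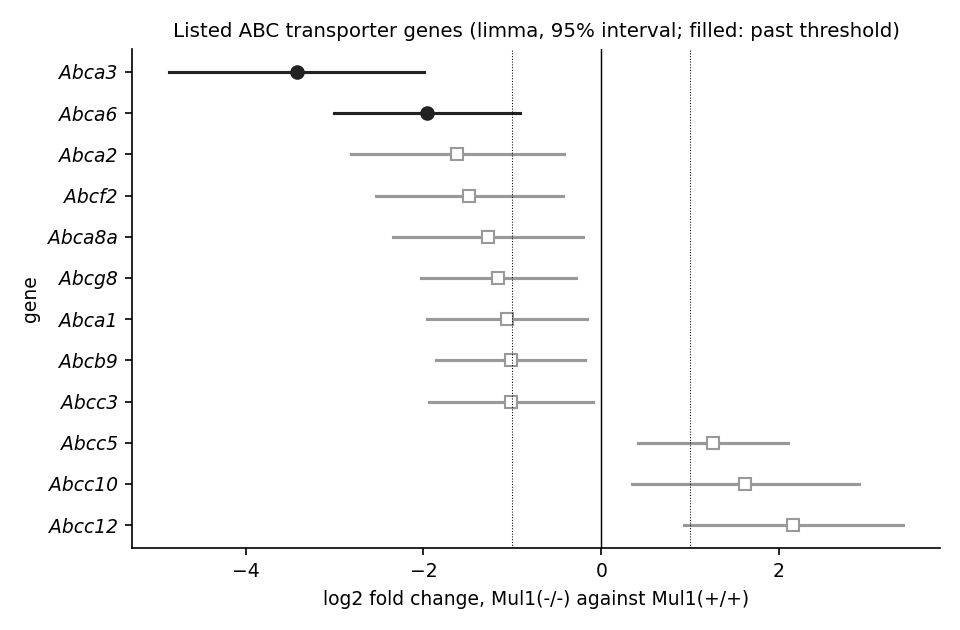
Log2 fold changes of the 12 listed ABC family genes that are in the table (Abcf2 among them is not a transporter), Mul1(−/−) against Mul1(+/+), with 95% intervals from limma. The 9 lower genes run from −3.43 for Abca3 to −1.01 for Abcc3, the 3 higher genes are Abcc5, Abcc10 and Abcc12, and the table itself holds only genes the authors had called.

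Among the 12, the order of mean levels per kilobase changed for Abca3 and little for Abca6. In Mul1(+/+) livers Abca6 ranked 2nd, after Abcc3 and before Abcg8, and Abca3 ranked 5th, between Abca8a and Abcf2. In Mul1(−/−) livers Abca6 ranked 3rd, after Abcc3 and Abcg8, and Abca3 ranked 10th. The ranges of Abca6 and Abcg8 overlapped in each group, as did those of Abca3 and Abca8a in Mul1(+/+), so the order within these pairs was not beyond their spread. The Mul1(+/+) range of Abca3 (334 to 1528) also spanned those of Abcf2 (681 to 757) and Abca1 (426 to 806). In Mul1(−/−) its range (30.8 to 113) overlapped those of Abcc5 (63.5 to 95.8), Abca2 (51.3 to 165) and Abcc10 (55.4 to 270). The exact place of Abca3 was thus not beyond the spread in either group. Abcc5 and Abcc10, themselves higher in Mul1(−/−), ranked below Abca3 in Mul1(+/+) and above it in Mul1(−/−).

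Genes that act with lamellar bodies in the lung held both directions. The table held 6 of 14 listed lamellar body and surfactant genes, with 4 higher and 2 lower (Hps1, with no overlap of the groups and not past the threshold, and Slc34a2). Sftpd, which encodes the collectin surfactant protein D, rose from 43.4 ± 12.6 to 185 ± 25.9 (log2 fold change 2.10 ± 0.40, limma, adjusted p = 0.00692). Sftpa1, encoding surfactant protein A, was at 10.3 ± 4.01 and 60.8 ± 37.4 (adjusted p = 0.0116), and Muc1, a membrane mucin of epithelia, had a log2 fold change of 1.88 ± 0.67 (adjusted p = 0.0238). Slc34a2, a phosphate carrier of alveolar type II cells, was at 72.0 ± 87.3 and 15.4 ± 7.91 with overlapping groups (adjusted p = 0.0896). All of these 4 genes were at levels far under those of Abca3 in Mul1(+/+) livers.

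Of 24 listed genes for the synthesis and remodelling of phosphatidylcholine and phosphatidylethanolamine, substrates of the transporters' class, 4 were in the table and all 4 were lower with no overlap between groups, against 41.0% of the whole table. Pcyt1a, the rate-limiting enzyme of the CDP-choline route, fell from 4610 ± 793 to 1190 ± 544 (log2 fold change −2.03 ± 0.44, limma, adjusted p = 0.00776). Lpcat3, which inserts polyunsaturated chains into phosphatidylcholine, had −1.32 (adjusted p = 0.0203), Gpat4, an acyltransferase at the start of glycerolipid synthesis, −1.30 (adjusted p = 0.0177) and Ptdss1, a phosphatidylserine synthase, −1.25 (adjusted p = 0.0175). The 3 of 25 listed flippase and scramblase genes in the table were also lower, against 43.2% of the whole table. Of these Atp9a fell, with a log2 fold change of −1.52 ± 0.38 (limma, adjusted p = 0.00992), while Xkr8 had −1.42 (adjusted p = 0.0152) and Atp11a −1.29 (adjusted p = 0.0257).

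Cholesterol genes held both directions, most of them lower. The table held 8 of 17 listed cholesterol efflux genes and targets of the liver X receptors. Of these, 6 were lower and 2 higher, against 43.2% lower over the whole table. Lpl, lipoprotein lipase, rose from 702 ± 128 to 2281 ± 691 (log2 fold change 1.67 ± 0.41, limma, adjusted p = 0.00939). Apoc1, an apolipoprotein of triglyceride-rich particles, had 1.69 (adjusted p = 0.0120), Srebf1, the sterol regulatory element-binding factor of lipogenesis, −1.64 (adjusted p = 0.0173), and Lpcat3 is also in this list. Of 23 listed cholesterol synthesis genes, Srebf2, the sterol-sensing transcription factor of that pathway, was in the table, with −1.45 (adjusted p = 0.0163).

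Lysosome and late endosome genes, listed because A-subfamily proteins are found in that compartment, had 3 of 20 in the table. Cd63, a membrane protein of late endosomes, rose from 456 ± 139 to 2855 ± 1421 (log2 fold change 2.58 ± 0.47, limma, adjusted p = 0.00640), Scarb2 had −1.27 (adjusted p = 0.0187) and Ctsl 1.16 (adjusted p = 0.0231). Past the threshold were 1 of 6 surfactant, 1 of 4 phospholipid synthesis and 1 of 3 flippase and scramblase genes. So were 1 of 8 cholesterol efflux, 0 of 1 cholesterol synthesis and 1 of 3 lysosome genes, against 24.1% of the whole table. Of these 5 genes (Sftpd, Pcyt1a, Atp9a, Lpl and Cd63), 0 remained past it without any 1 Mul1(+/+) library or without Mul1(−/−) replicate 2. Without Mul1(−/−) replicate 1, 2 remained, and without Mul1(−/−) replicate 3, 5 did. Over the table, the 854 calls became 25, 13 and 46 without Mul1(+/+) replicates 1, 2 and 3. They numbered 631, 10 and 2673 without Mul1(−/−) replicates 1, 2 and 3. Lpl and Sftpd lost their calls on the median-ratio scale, Lpl also on the total scale, Atp9a on the scale without the mitochondrial genome, and Atp9a and Lpl with a pseudocount of 0.5.

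**Figure D4:**
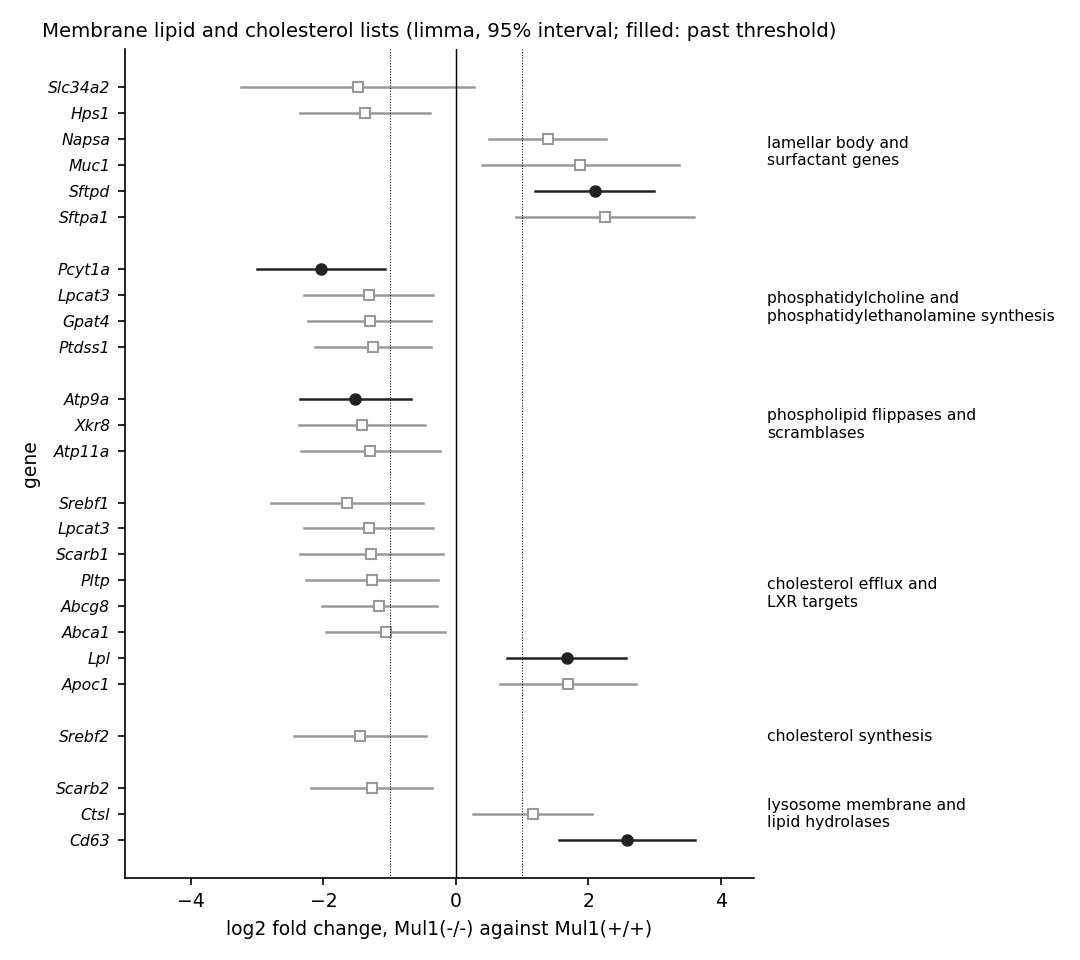
Log2 fold changes, Mul1(−/−) against Mul1(+/+), with 95% intervals from limma, of the genes of the 6 membrane lipid, cholesterol and lysosome lists that are in the table, filled where past the threshold. Synthesis, flippase and scramblase genes lie below 0, while surfactant, cholesterol and lysosome genes lie on both sides.

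The table also held marker genes of several cell types. Of 6 listed markers of lung alveolar type 2 cells, where Abca3 is best known, Sftpa1, Napsa and Slc34a2 were in the table, and their summed normalized count was 52.3 to 198 in Mul1(+/+) and 118 to 160 in Mul1(−/−) livers, far below Abca3 in Mul1(+/+). Of 12 hepatocyte markers, 3 were in the table, 2 lower (Hnf4a and Apob) and 1 higher (Hpx), none past the threshold. Their sum was 318332 to 408349 in Mul1(+/+) and 392152 to 526987 in Mul1(−/−) livers. Hpx weighed heavily in it, with means of 170781 and 391992. Hnf4a and Apob were at 31.7% and 47.3% of their Mul1(+/+) means, with no overlap of the groups. Of 7 cholangiocyte markers, 4 were in the table, all higher and 2 past the threshold, with sums of 1292 to 1891 and 4878 to 5100. Of all genes tested, 56.8% were higher and 16.7% were past the threshold and higher. The 3 of 8 endothelial markers in the table were lower (sums 5145 to 5728 and 1875 to 3020), and the 2 of 8 stellate cell markers were higher (4314 to 5241 and 8482 to 28580). The 2 of 8 lymphocyte markers were higher at low levels (13.9 to 60.2 and 89.1 to 202). None of the 8 Kupffer cell or 5 adipocyte markers was in the table, and no marker in the table was at 0 in all libraries. The part of these cell types in the falls of Abca3 and Abca6 was not tested.

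Long transcripts were more often lower than short ones in this table, and both genes are long. Ranked by the longest coding transcript among 2839 protein-coding genes, Abca3 was longer than 89.2% and Abca6 than 80.9%, which puts both in group 9 of 10 equal groups by length. In that group, 217 of 284 genes (76.4%) were lower in Mul1(−/−), with a median log2 fold change of −1.27, while among the shortest 2.83% were lower. Within the group, Abca3 had the 4th largest fall of 284 genes and Abca6 the 36th, and 43 of its genes (15.1%) were called lower. The part of transcript length in either value was not tested.

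**Figure D5:**
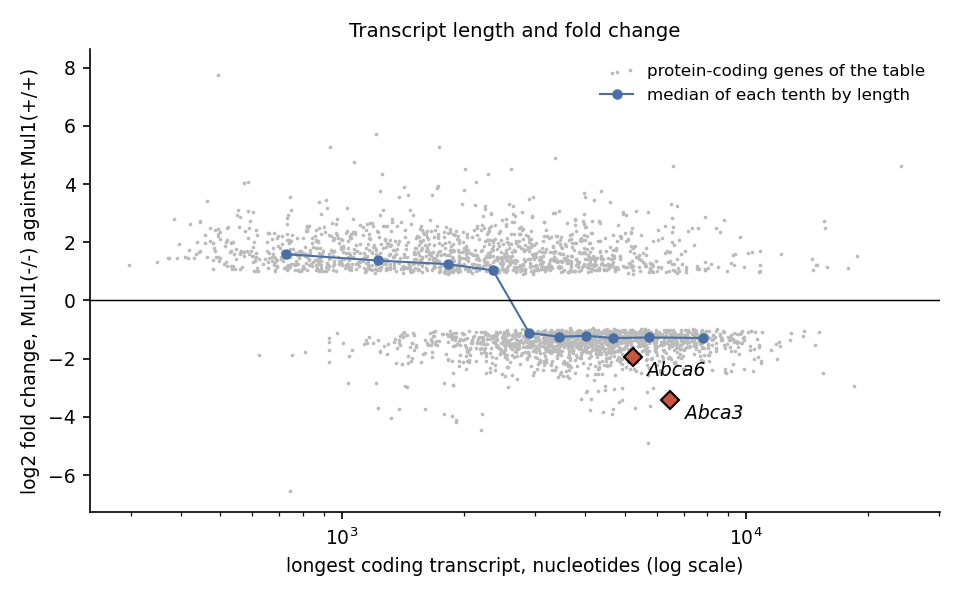
Log2 fold change, Mul1(−/−) against Mul1(+/+), against the length of the longest coding transcript (log axis) for the 2839 protein-coding genes of the table, with Abca3 and Abca6 marked. The 10 equal groups by length go from 2.83% lower in the shortest to 78.5% lower in the longest, and both genes lie below the median of their group.

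The genes around the pair were looked at because A-subfamily genes lie in clusters. Within 500 kb of Abca3 the annotation has 81 genes, 55 of them protein-coding, and 5 were in the table. Tsc2, a subunit of the tuberous sclerosis complex that restrains mTORC1, had a log2 fold change of −1.43, while Dnase1l2 (2.10), Rab26os (1.73), Nme3 (1.495) and Mapk8ip3 (1.199) were higher. Within 500 kb of Abca6 there are 12 genes, 7 of them protein-coding, and Abca8a, 80.8 kb away, was in the table. Of these 6 neighbours, 0 passed the limma threshold, and 4 of the 5 near Abca3 and Abca8a near Abca6 had an unadjusted p under 0.05, against 24.1% and 96.4% over the whole table. The nearest protein-coding gene with Abca6's orientation, Abca9, lies 8624 bases away, and Abca5 17593 bases away; neither was analysed here.

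The start of Abca3 is shown because its sequence can be set beside the lower mRNA level. RefSeq gives the 250 bases before its start site on GRCm38.p6, at chr17:24351773-24352022 on the plus strand, where the start is that of the longest coding transcript and a retained-intron transcript begins inside the window. The capitals mark the 2 motif matches found in it.
Abca3 promoter: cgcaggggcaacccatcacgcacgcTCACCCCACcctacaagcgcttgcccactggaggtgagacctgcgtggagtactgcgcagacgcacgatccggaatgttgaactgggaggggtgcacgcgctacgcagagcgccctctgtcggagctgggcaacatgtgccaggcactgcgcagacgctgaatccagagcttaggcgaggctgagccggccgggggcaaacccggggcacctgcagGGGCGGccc
The first match is to TCACNCCAC, a form of the sterol regulatory element, 225 bases before the start, and the second is a GC box, GGGCGG, 9 bases before it. Both strands were searched, and TCACNCCAC was present in 346 of 32851 promoters of the same length (1.05%) and the GC box in 32.7%. Of the 10 ABC genes of the table with a promoter entry, Abca3 alone had the first motif and 5 had the GC box. The motifs were chosen after this sequence had been read, so these shares and counts do not measure how unusual a match is. The letters of the E-box CACGTG (6.02% of promoters), of TATAAA (12.4%) and of CCAAT (33.8%) were not in this window. The GC content was 67.6%, higher than in 87.1% of promoters. A match of letters does not show that a factor binds there, and no binding was measured.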

How the data were processed

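Liver RNA of 3 Mul1(+/+) and 3 Mul1(−/−) mice was sequenced and compared by the authors with DESeq2. The aligner, counter, genome build and strand setting are not given in the sources used here. The deposited table holds, per gene, normalized read counts of each library, that is counts the authors divided by 1 factor per library. It also holds the authors' log2 fold changes and their p-values and adjusted p-values, which were read only to see how genes had been selected: all have an adjusted p no higher than 0.05 and a fold change no smaller than 1 log2 unit. All 6 library columns were used, and 0 were left out.

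From these values log2(value + 1) was computed without a filter, and a model with genotype alone was fitted by limma 3.58.1 (R 4.3.3). This scale understates the change of low genes. The Benjamini-Hochberg adjustment ran over the 3542 genes, with the threshold of the study's methods (adjusted p under 0.01, absolute log2 fold change above 1). The plan had foreseen a count test for whole counts and this test otherwise. The value of 1 read was recovered from the low values, and 100% of values under 10000 were whole multiples of it within 0.1 read. Those reads were used for depth only and entered no test. The reads on the table's genes are part of each library. Precision is set by 3 libraries a group, and the floor of 3 reads covers counting error only. limma was tested on simulated data. The rest was done in Python 3.11.15 (pandas 2.3.3, numpy 2.4.6, matplotlib 3.10.9, scipy 1.17.1).

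Named genes were the members, the ABC genes of the table, at most 4 genes of each other pathway list by size of change, Mul1, the 5 genes most like each member, and neighbours within 500 kb. Some genes are not reported here and were left out of the lists. The members, lists and tests were chosen with earlier results of these data known. The motifs were chosen after the promoter was read. Gene models are GENCODE M21 on GRCm38, to which 3529 identifiers matched and 13 did not, and the authors may have used another build. Promoters are RefSeq's on GRCm38.p6. The alternatives were other pseudocounts, a filter, other scalings, limma-trend, another threshold, a replicate block and leaving out each library.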

Additional observations from a re-analysis of the deposited data

How the results depend on the processing

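Under 15 alternatives, Abca3 stayed past the threshold in 10 and Abca6 in 7, and neither changed direction. The separation of the groups fixes that direction when 1 library is left out. The filter, limma-trend, the other threshold and the replicate block leave both fold changes as they are. The Abca6 call was lost with a pseudocount of 0.5 (log2 fold change −1.96, adjusted p = 0.0106) and with scaling by the total without the mitochondrial genome (−1.91). With 1 library left out, Abca3 ranged from −3.99 to −2.87, Abca6 from −2.32 to −1.73, and their difference from −1.805 to −1.002. The replicate block left 0 of 3542 genes past limma's threshold (3314 had an unadjusted p under 0.05), with values of −3.43 for Abca3 (adjusted p = 0.0159) and −1.96 for Abca6 (adjusted p = 0.0160) and 0 ABC genes. Same-numbered libraries had correlations of deviations of 0.02, 0.35 and 0.05. Mul1(+/+) replicates 1 and 3 correlated best with another number, while the highest value of all, 0.35, was that of the replicates numbered 2. Deviations within 3 libraries a group cannot settle whether the numbers pair the animals. Genes past the threshold numbered 854, against 1459 with a pseudocount of 10, 1343 scaled by the table total, 1267 by the median ratio, 1869 with limma-trend and 3380 at an adjusted p under 0.05. They numbered 10 to 2673 with 1 library left out (25, 13 and 46 without Mul1(+/+) replicates 1, 2 and 3, 10 and 2673 without Mul1(−/−) replicates 2 and 3). The share of calls that were higher was 69.2%, and was 53.4% with a pseudocount of 10, 18.6% on the median-ratio scale, 46.1% on the total scale, 80.6% without the mitochondrial genome, 51.6% with limma-trend and 55.5% at 0.05. ABC genes past it numbered 2, against 1 with a pseudocount of 0.5 or without the mitochondrial genome, 5 on the median-ratio scale, 7 with limma-trend, 12 at 0.05 and 0 to 7 with 1 library left out. The cause of these changes was not tested. For the other 43 named genes, 478 repeated values stayed on the same side of the threshold, 114 newly passed it, 53 no longer did and 0 reversed. The planned count tests on recovered reads were not run. With 3 livers a group, the spread between animals and not read depth limits both genes.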

Other observations

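The genes whose log2 values across the 6 libraries were most like those of each transporter were picked by Pearson's r, as a description only, since all genes share the libraries, their depth and the group difference. For Abca3 they included Slc29a3, a lysosomal nucleoside transporter (r = 0.997), AI661453 (0.997), Rela, a subunit of NF-κB (0.995), and Tmem181a (0.995), with log2 fold changes of −1.58, −1.74, −1.19 and −1.32. For Abca6 they were Ugt1a5, a glucuronosyltransferase (0.997), Zfp871 (0.997), Abhd2, a serine hydrolase (0.996), Ddah1, which degrades methylarginines (0.995), and Gna13, a G protein subunit (0.995), with log2 fold changes of −4.43, −2.08, −1.67, −2.03 and −1.18. With each group's mean removed, r was 0.981 to 0.995 for the genes like Abca3 and 0.980 to 0.996 for those like Abca6, over 6 libraries. The genes had been picked for the highest r in the same libraries, so these values are not a check on the likeness.

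Such likeness was common: 922 of 3541 genes (26.0%) had r of at least 0.9 with Abca3, and 912 (25.8%) with Abca6. Abca3 and Abca6 themselves had r = 0.943 over the 6 libraries and 0.712 with group means removed. Abca6 was the 456th gene in order of likeness to Abca3, and Abca3 the 497th in order of likeness to Abca6.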
